A study of Homo sapiens with 12 samples.

Results

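The genes described here move folate into the cell and between its compartments, keep it there, and shuttle the carbon units it carries. They are SLC19A1, FPGS, GGH, MTHFD1, MTHFD1L, MTHFD2, MTHFD2L, ALDH1L2 and SLC25A32, chosen by symbol from the deposited count table. All 9 were found among its 61541 genes, and all 9 were among the 16768 genes that passed the filter on low counts and were tested. The series holds 12 RNA sequencing libraries of A549, a line established from a lung adenocarcinoma, collected 14 days after transduction. Cells carried either a non-targeting guide, gNTC1 (control), or Cas9 directed at TYMS (TS-KO, knockout), and each kind was sampled alone and in co-culture, which makes 4 groups of 3. Per the labels no group received a drug treatment. The series text names parental A549 as the cells beside which the knockout was co-cultured and calls its proliferation restored there. The partner of the co-cultured control cells, any separation of the partners before RNA was taken, and whether the knockout cells were a clone or a pool are not given in the sources used here. Nor is it given whether replicates came from separate cultures, so the p-values measure only the spread between these libraries, which may be technical.

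Folates are vitamins that carry single carbon units at different oxidation states. SLC19A1, the reduced folate carrier, brings them in at the plasma membrane. FPGS adds a chain of glutamates that holds folate inside the cell, and GGH removes that chain in the lysosome. SLC25A32 carries folate into the mitochondrion, where MTHFD2 and MTHFD2L oxidise methylene-tetrahydrofolate, MTHFD1L releases formate and ALDH1L2 burns the formyl unit to carbon dioxide with formation of NADPH. The formate leaves for the cytosol, where MTHFD1 turns it back into formyl- and methylene-tetrahydrofolate. TYMS, thymidylate synthase, uses methylene-tetrahydrofolate to make thymidylate for DNA, and is the step in this cycle that converts tetrahydrofolate to dihydrofolate.

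TYMS, the targeted gene, was measured at 90.3, 100.8 and 95.2 CPM (counts per 1e6 counts, TMM-scaled) in the lone libraries labelled control and at 90.5, 94.2 and 95.7 CPM in the co-cultured ones. It stood at 20.3, 20.96 and 21.4 CPM in the lone knockout and at 11.4, 11.004 and 10.7 CPM in the co-cultured knockout, so the labels of control and knockout were borne out at this gene. The label A549 was not borne out in the control libraries. A549 is known to lack CDKN2A and MTAP through a homozygous deletion at 9p21, yet CDKN2A stood at 54.7 to 116 CPM and MTAP at 43.8 to 79.5 CPM in all 6 libraries labelled control. In the 6 knockout libraries CDKN2A stood at 0 to 0.119 CPM, MTAP at 0.302 to 0.647 CPM, and CDKN2B, the third gene of that deletion, had no count. The epithelial adhesion gene EPCAM also separated the sets, at 94.4 to 119 CPM in the libraries labelled control and 0.149 to 0.913 CPM in the knockout. In every comparison of knockout with labelled control below, the effect of the guide and such a difference between the cells therefore cannot be told apart. Comparisons of co-cultured with lone libraries stay within 1 label. Defining genes of blood, endothelium and fibroblasts were low in all libraries: PTPRC, CD3E and CD68 summed to at most 3.61 CPM, PECAM1, VWF and CDH5 to at most 2.60 CPM, and the 4 fibroblast genes to at most 24.5 CPM, nearly all of it COL1A1.

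Library totals ran from 14921371 to 35723762 counts, so 1 CPM stands for 14.9 counts in the shallowest. Libraries of one group also deviated from their mean along the GC content of transcripts, with rank correlations across 16505 genes from -0.753 to 0.735, both extremes being co-cultured knockout libraries (replicates 3 and 2). This bears on the genes described here, since SLC19A1 and FPGS have transcripts of 63.1% and 63.2% GC and the other 7 lie between 39.0% and 48.6%. An alternative fit removes the trend (GC offsets). Where it changes a call, or the sign of a difference described for a gene, its value is given with that gene, and further sign changes of values not called stand in the account of how results depend on the processing.

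In lone cells, 4 of the 9 genes differed between knockout and labelled control. SLC19A1 and MTHFD1L were lower and ALDH1L2 and MTHFD1 were higher in the knockout. The share called among all genes tested was 56.6%, with 28% higher and 28.6% lower, so 4 of 9 (44.4%) is no larger than that background. The median log2 fold change was 0.03 over the 9 genes and 0.09 over all genes tested. The groups did not overlap for 4 of the 9, where 65.2% of all genes did not overlap. With GC offsets 1 was higher and 5 were lower (ALDH1L2 against SLC19A1, MTHFD1L, GGH, MTHFD2 and MTHFD2L), where the fit without them gave 2 and 2. Over all 16768 genes the fit with GC offsets called 4986 higher and 5516 lower, against 4690 and 4795 without them. In co-culture 4 of the 9 were called again, against 49.4% of all genes (24.1% higher and 25.3% lower). These were SLC19A1 and MTHFD1L, again lower, and ALDH1L2 and GGH, higher. Their median was 0.05, against -0.02 over all genes. The co-cultured and the lone comparison share no library.

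**Figure D1:**
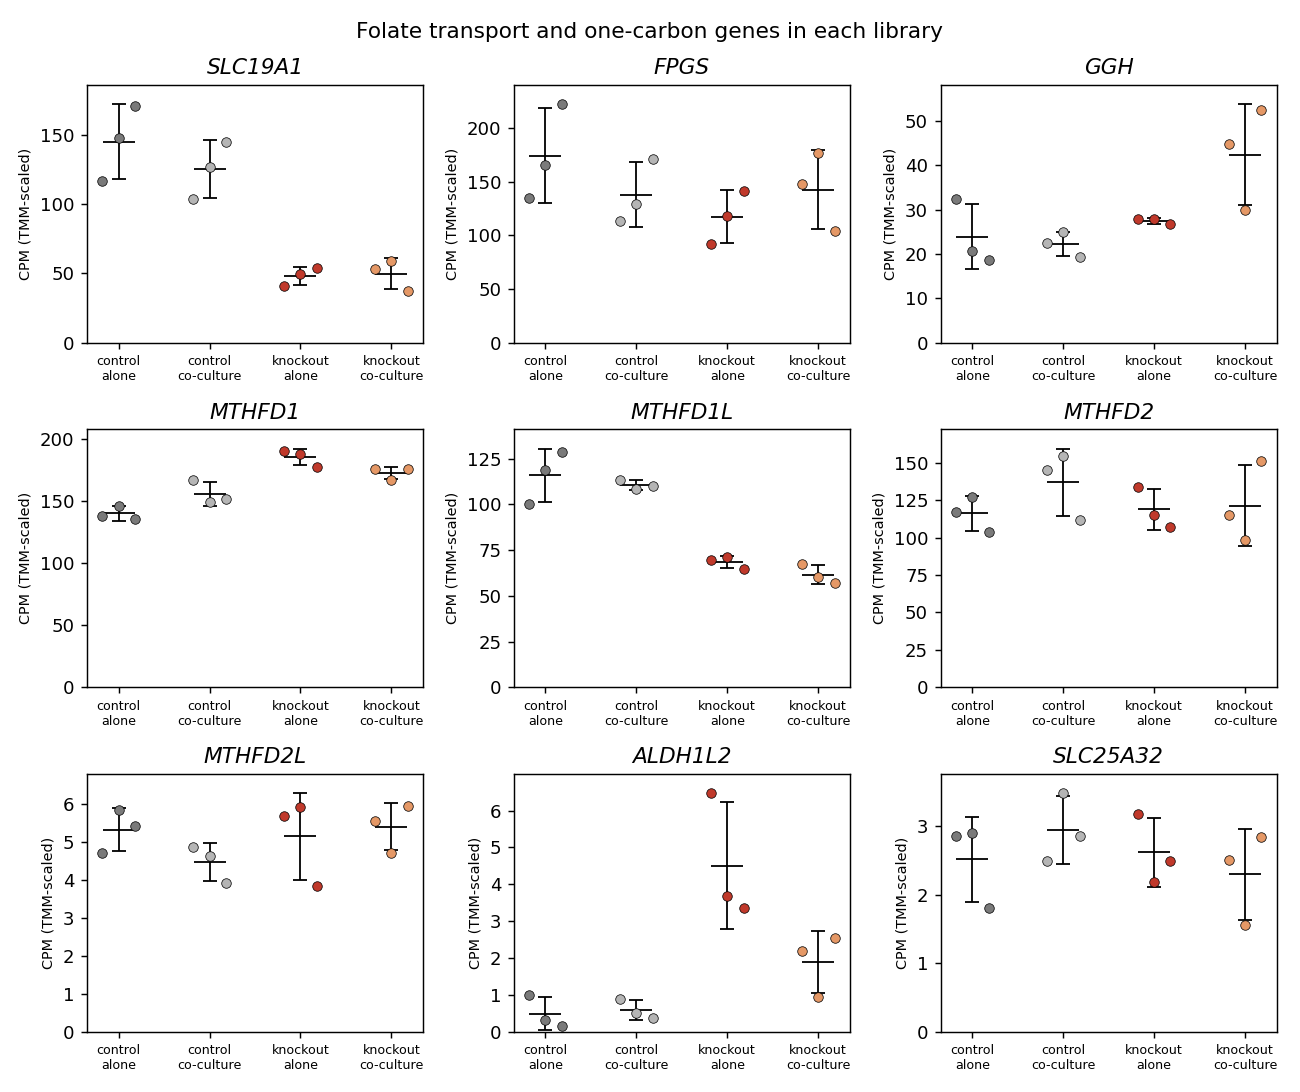
Level of each of the 9 genes (TMM-scaled CPM, each panel with its own axis from 0) in the 12 libraries, by group. Points are libraries, the long bar is the mean and the whiskers are 1 SD (n = 3). SLC19A1 and MTHFD1L lie lower, and ALDH1L2 higher, in both knockout groups than in the groups labelled control, while MTHFD2, MTHFD2L and SLC25A32 overlap throughout.

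Uptake was represented by SLC19A1 (ENSG00000173638, GRCh38 chromosome 21, 45493572 to 45544411, minus strand). Its level was 116.6, 147.9 and 170.5 CPM in the lone libraries labelled control and 41.3, 49.6 and 53.9 CPM in the lone knockout. In co-culture it was 103.5, 126.7 and 145.0 CPM under the control label and 53.5, 58.8 and 37.4 CPM in the knockout. Every knockout library lay below every library labelled control. The difference was 3.01-fold lower alone (log2 fold change -1.59 with SE 0.20, edgeR adjusted p = 2.86e-05) and 2.51-fold lower in co-culture (-1.33 with SE 0.20, edgeR adjusted p = 0.000132). With GC offsets the lone difference shrank to -0.90 on the log2 scale (edgeR adjusted p = 5.26e-08). Co-culture left SLC19A1 of the knockout at overlapping values, with a log2 difference of 0.05 (95% interval -0.38 to 0.48), which turned to -0.16 with GC offsets (edgeR adjusted p = 0.113). In each of the 4 groups its libraries ranked in the order of their GC deviation.

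Within the SLC19A1 gene, exons of COL18A1 on the opposite strand cover 1401 of 9998 exonic bases, and the strand setting of the counting is not given in the sources used here. COL18A1 stood at 362.9 ± 74.5 CPM in lone labelled control and at 564.8 ± 49.4 CPM in lone knockout (SD, n = 3 each). The promoter sequence is shown because the gene had the largest decrease of the 9 in the fit without GC offsets (with them MTHFD1L had the largest in lone cells), and because genes of thymidylate synthesis are classical targets of the S-phase factor E2F. RefSeq windows reach from 250 bases before to 50 after a transcript start on GRCh38.p14, and 6 of the 9 genes were matched to at least 1 window. The stretch below is the part of the SLC19A1 window at chr21:45541839-45542096 (minus strand, printed 5′ to 3′) that no GENCODE exon covers, with TTTCCCGC, a form of the E2F element, in capitals.
SLC19A1: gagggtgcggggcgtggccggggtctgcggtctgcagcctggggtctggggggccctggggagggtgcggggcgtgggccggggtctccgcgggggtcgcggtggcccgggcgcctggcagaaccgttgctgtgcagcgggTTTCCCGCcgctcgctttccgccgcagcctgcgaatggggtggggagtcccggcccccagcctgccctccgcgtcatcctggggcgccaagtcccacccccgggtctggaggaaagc
Searched on both strands, TTTCCCGC occurs in a window of 1.98% of all genes and in 1.63% of all windows, and among the 6 genes matched only in SLC19A1. SLC19A1 has 4 windows, and more windows give a gene more room for a match. The other E2F form searched, TTTGGCGC, occurs in windows of 0.795% of genes and in none of the 6. A match is a run of letters and not a measured binding site.

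Of the genes of retention, neither FPGS nor GGH was called in lone cells. FPGS (ENSG00000136877, chromosome 9, 127794597 to 127814327, plus strand) stood at 135.2, 165.4 and 222.4 CPM in lone labelled control and at 91.9, 118.6 and 141.4 CPM in lone knockout. In co-culture it stood at 113.1, 129.1 and 171.5 CPM under the control label and at 147.9, 176.4 and 103.7 CPM in the knockout. The spread within each group was as wide as the gaps between them, and in each of the 4 groups the libraries ranked in the order of their GC deviation. The log2 difference between knockout and labelled control was -0.57 alone (SE 0.24, edgeR adjusted p = 0.0610) and 0.05 in co-culture (SE 0.24, edgeR adjusted p = 0.883). With GC offsets the lone value changed sign, to 0.12 (edgeR adjusted p = 0.295), and the co-cultured value became 0.28 (edgeR adjusted p = 0.0154), so the direction for FPGS rests on how this trend is handled. The lone difference was called as lower without the filter on low counts (-0.58, edgeR adjusted p = 0.0110), with only the groups compared (-0.58, 0.0344), without replicate 1 of labelled control (-0.73, 0.0281) and without replicate 3 of the knockout (-0.75, 0.0356).

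GGH (ENSG00000137563, chromosome 8, 63015079 to 63039171, minus strand) was higher in co-cultured knockout than in co-cultured labelled control. It was measured there at 44.9, 29.999 and 52.4 CPM, against 27.9, 27.9 and 26.8 CPM in the lone knockout. It stood at 32.4, 20.8 and 18.7 CPM in lone labelled control and at 22.4, 24.9 and 19.4 CPM in its co-culture. All 3 co-cultured knockout libraries lay above all 3 lone ones and above all 3 co-cultured libraries labelled control. GGH rose 1.91-fold over labelled control in co-culture (log2 fold change 0.93 with SE 0.23, edgeR adjusted p = 0.00446). From lone to co-cultured knockout the log2 difference was 0.62 (95% interval 0.13 to 1.12, edgeR adjusted p = 0.0920), which did not pass. With GC offsets that difference was 1.24 (edgeR adjusted p = 3.49e-05), and the lone comparison with labelled control went from 0.20 (edgeR adjusted p = 0.468) to -0.38 (edgeR adjusted p = 0.0352).

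In the cytosol, MTHFD1 (ENSG00000100714, chromosome 14, 64388031 to 64463457, plus strand) carries 3 linked activities on 1 protein. Its level was 137.9, 146.1 and 135.3 CPM in lone labelled control and 190.2, 187.8 and 177.4 CPM in lone knockout. In co-culture it was 166.4, 149.0 and 151.2 CPM under the control label and 175.3, 166.8 and 175.4 CPM in the knockout. The lone groups stood well apart, and the co-cultured groups lay between them without overlap. MTHFD1 was 1.32-fold higher in lone knockout (log2 fold change 0.41 with SE 0.11, edgeR adjusted p = 0.00729). In co-culture the difference was 0.15 (SE 0.11, edgeR adjusted p = 0.283). The lone call was lost with GC offsets (0.05, edgeR adjusted p = 0.664) and without the filter on low counts (0.39, edgeR adjusted p = 0.133).

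Transport into the mitochondrion is the role of SLC25A32 (ENSG00000164933, chromosome 8, 103398635 to 103415189, minus strand). It was counted at 2.85, 2.90 and 1.80 CPM in lone labelled control, 2.49, 3.48 and 2.85 CPM in its co-culture, 3.17, 2.19 and 2.49 CPM in lone knockout and 2.50, 1.55 and 2.84 CPM in co-cultured knockout. The groups overlapped, no comparison was called, and with 33 to 91 counts per library the 95% interval of the lone knockout difference ran from -0.57 to 0.70 on the log2 scale. That difference went from 0.07 to -0.57 with GC offsets (edgeR adjusted p = 0.0595), and the one from lone to co-cultured knockout from -0.20 to 0.44, so neither direction held for SLC25A32. The level itself is uncertain, since 2547 of its 3654 exonic bases are shared on the same strand with the gene model ENSG00000285982, which had 1 count in all 12 libraries.

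Of the mitochondrial oxidation enzymes, MTHFD2 (ENSG00000065911, chromosome 2, 74198562 to 74217565, plus strand) uses NAD and is the form usually abundant in growing tumour cells. It stood at 117.3, 127.2 and 104.0 CPM in lone labelled control and at 133.9, 115.3 and 107.1 CPM in lone knockout. In co-culture it stood at 145.1, 154.3 and 111.7 CPM under the control label and at 114.8, 98.1 and 151.2 CPM in the knockout. All 4 groups overlapped, and the log2 difference between lone knockout and lone labelled control was 0.03 (95% interval -0.35 to 0.42). With GC offsets it became -0.45 (edgeR adjusted p = 0.000965), and the difference from lone to co-cultured knockout went from 0.03 to 0.37 (edgeR adjusted p = 0.0117).

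MTHFD2L (ENSG00000163738, chromosome 4, 74114174 to 74303099, plus strand), the close relative of MTHFD2, was much scarcer. It was measured at 4.71, 5.85 and 5.41 CPM in lone labelled control, 4.87, 4.63 and 3.91 CPM in its co-culture, 5.67, 5.93 and 3.83 CPM in lone knockout and 5.56, 4.71 and 5.93 CPM in co-cultured knockout. No comparison was called. With GC offsets the lone knockout lay below labelled control at -0.76 (edgeR adjusted p = 0.0278), and the co-cultured knockout above the lone one at 0.84 (edgeR adjusted p = 0.0322).

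Release of formate in the mitochondrion is the work of MTHFD1L (ENSG00000120254, chromosome 6, 150865549 to 151101887, plus strand). Its level was 100.03, 118.9 and 128.9 CPM in lone labelled control and 69.5, 71.2 and 64.9 CPM in lone knockout. In co-culture it was 113.6, 108.3 and 110.2 CPM under the control label and 67.2, 60.3 and 57.3 CPM in the knockout. The 2 sets of 6 libraries were fully apart. MTHFD1L was 1.69-fold lower alone (log2 fold change -0.76 with SE 0.13, edgeR adjusted p = 0.000226) and 1.80-fold lower in co-culture (-0.85 with SE 0.13, edgeR adjusted p = 0.000104). The fit with GC offsets gave -1.07 and -0.92, both still called. From lone to co-cultured knockout the difference was -0.15 (95% interval -0.42 to 0.12).

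**Figure D2:**
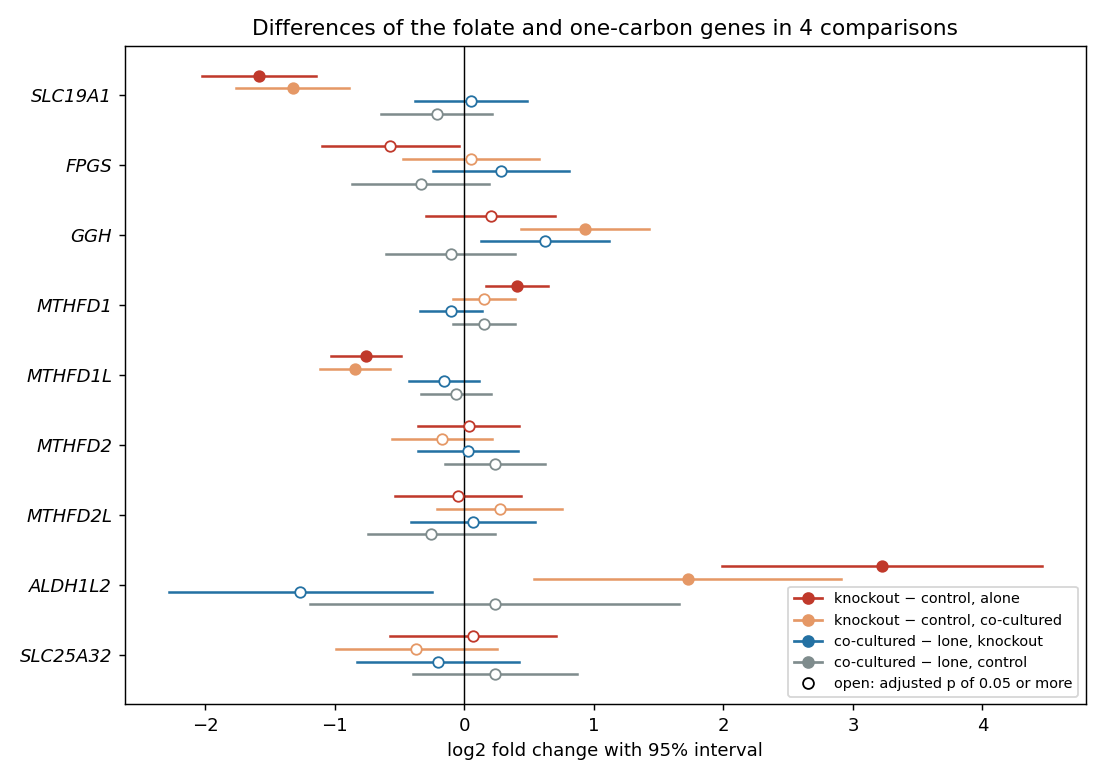
Log2 fold change of each gene with its 95% interval in 4 comparisons, from 1 fit over 12 libraries. Filled points have an edgeR adjusted p under 0.05. SLC19A1 and MTHFD1L lie left of 0 in both comparisons of knockout with labelled control, ALDH1L2 right of 0 in both, and no point of a comparison of co-cultured with lone libraries is filled.

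Sequences around promoter motifs are shown for MTHFD1L, MTHFD1, FPGS and MTHFD2 because these enzymes pair across compartments (MTHFD1L with MTHFD1) or are often described as targets of the factors ATF4, MYC or NRF2. Each run is 30 bases, 5′ to 3′ on the gene's plus strand, with the match in capitals. MTHFD1L holds the ATF4 composite element TGATGNAA at chr6:150866346-150866375 and an E-box, CACGTG, at chr6:150866320-150866349. The E-boxes of MTHFD1 and FPGS lie at chr14:64388326-64388355 and chr9:127803093-127803122. MTHFD2 holds the antioxidant response element TGACNNNGC, on the minus strand, at chr2:74198611-74198640. Unlike the SLC19A1 stretch above, these matches all lie within annotated exons of the genes themselves.
MTHFD1L ATF4 element: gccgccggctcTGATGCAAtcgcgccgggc
MTHFD1L E-box: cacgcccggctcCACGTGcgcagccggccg
MTHFD1 E-box: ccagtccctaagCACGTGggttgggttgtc
FPGS E-box: tgggcgcgacgaCACGTGggcctgcgctga
MTHFD2 antioxidant response element: ttccctcccgGCGCAGTCAccggcgcggtc
The ATF4 element was found in 1 of the 6 genes matched and in 4.46% of all genes (3.62% of windows), the E-box in 4 of 6 and in 8.77% of all genes (7.26% of windows), and the antioxidant response element in 3 of 6 and in 16.1% of all genes (13.3% of windows). SLC19A1 and MTHFD1L have 4 windows each, FPGS 3, MTHFD2L 2, and MTHFD1 and MTHFD2 1 each. All 27305 genes together have 35116 windows. More windows give a gene more room for a match, so the shares per gene are not alike, and enrichment was not tested. The ATF4 element and the E-box of MTHFD1L do not overlap. Of the genes that hold an E-box, the fit without GC offsets gave MTHFD1 higher in lone knockout, MTHFD1L and SLC19A1 lower, and FPGS not called. With GC offsets MTHFD1L (-1.07) and SLC19A1 (-0.90) stayed lower, and MTHFD1 (0.05) and FPGS (0.12) were not called. A link between the E-box and a direction was not tested.

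ALDH1L2 (ENSG00000136010, chromosome 12, 105019784 to 105084577, minus strand), which ends the mitochondrial branch by oxidising the formyl unit, had the largest log2 difference of the 9 genes. It was close to the limit of detection under the control label, at 0.992, 0.308 and 0.164 CPM alone (16, 5 and 3 counts) and at 0.891, 0.497 and 0.367 CPM in co-culture. The lone knockout had 6.48, 3.68 and 3.35 CPM (153, 74 and 55 counts) and the co-cultured knockout 2.20, 0.954 and 2.54 CPM. The lone groups stood far apart, and in co-culture the lowest knockout library lay just above the highest one labelled control. ALDH1L2 was 9.35-fold higher in lone knockout (log2 fold change 3.22 with SE 0.57, edgeR adjusted p = 0.000373) and 3.31-fold higher in co-culture (1.73 with SE 0.55, edgeR adjusted p = 0.0184). Replicate 1 of lone labelled control, with 16 counts, sets much of the lone value, which was 4.24 on the log2 scale without it. The co-culture call did not survive leaving out replicate 2 or 3 of the co-cultured labelled control (edgeR adjusted p = 0.0672 and 0.0840) or replicate 1 of the co-cultured knockout (0.0557).

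Co-culture of the knockout cells with parental A549 was the condition in which the series text describes restored proliferation. None of the 9 genes was called between lone and co-cultured knockout, where edgeR called 11.4% of all genes (5.97% higher and 5.4% lower). GGH and ALDH1L2 had an unadjusted p under 0.05, as did 30.1% of all genes. The 3 genes whose groups did not overlap were GGH, higher, and ALDH1L2 and MTHFD1, lower in co-culture, where 31.5% of all genes did not overlap (16.7% higher and 14.9% lower). The MTHFD1 difference was -0.10 and turned to 0.09 with GC offsets. ALDH1L2 differed by -1.27 on the log2 scale (95% interval -2.28 to -0.25, edgeR adjusted p = 0.0953). This comparison and the lone knockout against labelled control share the lone knockout libraries. The count of 0 rested on the settings: GGH and ALDH1L2 were both called by DESeq2 and without the filter on low counts, GGH alone was called without replicate 2 of the co-cultured knockout, ALDH1L2 alone without its replicate 3, and GGH, MTHFD2 and MTHFD2L with GC offsets. Over all genes the count went from 1907 to 3347 with DESeq2, 3340 without the filter and 4854 with GC offsets.

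CDKN2A bears only on how much RNA of cells like those labelled control the co-cultured knockout libraries held. It had 0, 4 and 0 counts there, against 921 to 2127 counts in the libraries labelled control. Parental A549 cells that lack CDKN2A would add no such counts, so RNA from a partner of that kind cannot be seen this way and was not tested. In such bulk libraries fewer cells of a kind and less RNA per cell cannot be told apart. TYMS itself fell from lone to co-cultured knockout (log2 fold change -0.92 with SE 0.11, edgeR adjusted p = 0.000307).

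Between co-cultured and lone libraries labelled control, edgeR called none of the 9 genes and 0% of all genes. None of the 9, and 540 of all genes (3.22%), had an unadjusted p under 0.05, and DESeq2 called none either. MTHFD1 was the only one of the 9 whose groups did not overlap, with 0.15 on the log2 scale (95% interval -0.09 to 0.39), where 7.39% of all genes did not overlap and 4.48% were higher without overlap. The co-culture difference in knockout minus that in labelled control was called for none of the 9 and for 1.8% of all genes. GGH had the only unadjusted p under 0.05 (18.7% of all genes had one), at 0.73 on the log2 scale (95% interval 0.03 to 1.43, edgeR adjusted p = 0.254), and with GC offsets it was called at 1.36 (edgeR adjusted p = 0.00105). ALDH1L2 stood at -1.50 (95% interval -3.24 to 0.24), so its values were not shown to respond differently to co-culture in the 2 kinds of cell. Without replicate 1 of lone labelled control that value was -2.52 (edgeR adjusted p = 0.115).

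**Figure D3:**
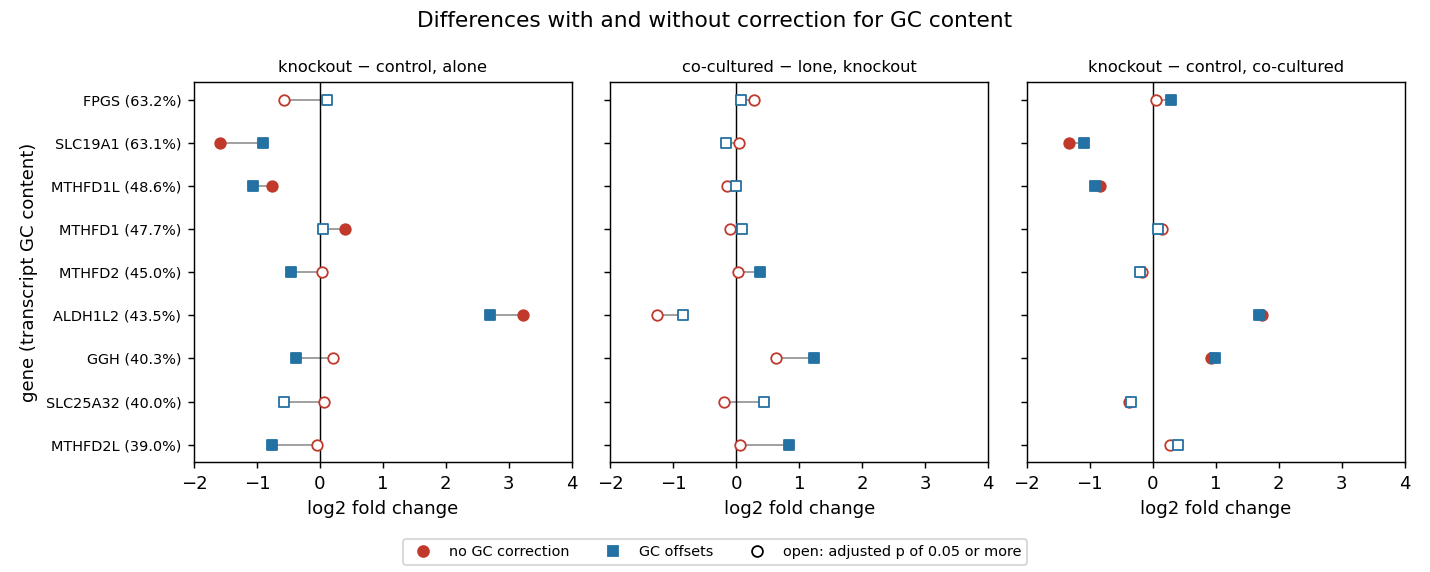
Log2 fold changes of the 9 genes without GC correction (circles) and with GC offsets (squares) in 3 comparisons, genes ordered by the GC content of their transcripts. Filled symbols have an edgeR adjusted p under 0.05. SLC19A1, MTHFD1L and ALDH1L2 keep their side of 0 in both comparisons of knockout with labelled control, while FPGS, GGH, MTHFD2 and SLC25A32 change sides in lone cells.

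Levels were also divided by exon length, with all annotated exons joined, which need not be the length of the transcripts present. The order of genes given here therefore depends on these lengths. On this scale FPGS was the most abundant of the 9 in lone labelled control at 44.3 ± 11.3 CPM per kb (SD, n = 3, as for each value in this paragraph). MTHFD2 at 23.8 ± 2.40 and MTHFD1L at 23.1 ± 2.92 CPM per kb came next and did not differ beyond their spread. MTHFD1 at 14.9 ± 0.603 and SLC19A1 at 14.5 ± 2.71 CPM per kb were likewise level, followed by GGH at 7.65 ± 2.35. SLC25A32 at 0.689 ± 0.169 and MTHFD2L at 0.542 ± 0.0586 CPM per kb were low, and ALDH1L2 was lowest at 0.0573 ± 0.0520. In lone knockout MTHFD1 at 19.7 ± 0.725 CPM per kb stood above MTHFD1L at 13.6 ± 0.646, GGH at 8.80 ± 0.211 stood above SLC19A1 at 4.82 ± 0.640, and ALDH1L2 at 0.529 ± 0.202 was level with MTHFD2L at 0.524 ± 0.116. In CPM, without division by length, GGH lay below SLC19A1 in every lone knockout library.

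Ratios within a library compare the transcripts of paired enzymes. The ratio of MTHFD1L to MTHFD1, per length, was 1.35, 1.52 and 1.78 in lone labelled control and 1.27, 1.36 and 1.36 in its co-culture. It was 0.682, 0.708 and 0.683 in lone knockout and 0.716, 0.675 and 0.610 in co-cultured knockout. The ratio was higher in all 6 libraries labelled control than in all 6 knockout libraries. Whether it lies above or below 1 depends on the exon lengths used, 5021 bases for MTHFD1L and 9377 for MTHFD1 (all annotated exons joined), and in CPM the transcript of MTHFD1 was the more abundant in every library. The 2 genes have nearly the same transcript GC content, 48.6% and 47.7%. FPGS over GGH averaged 6.37 ± 3.06, 5.06 ± 1.71, 3.40 ± 0.791 and 2.96 ± 1.58 in lone and co-cultured labelled control and lone and co-cultured knockout (SD, n = 3 each), with overlap between all groups. Per length, MTHFD2 exceeded MTHFD2L by 38.7 to 67.2 times in every library, a size that also depends on the exon lengths used (4870 and 9819 bases). In co-cultured labelled control this ratio was 60.1, 67.2 and 57.6, above every library of the other groups (at most 56.3, in lone knockout). The ratios were not tested.

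**Figure D4:**
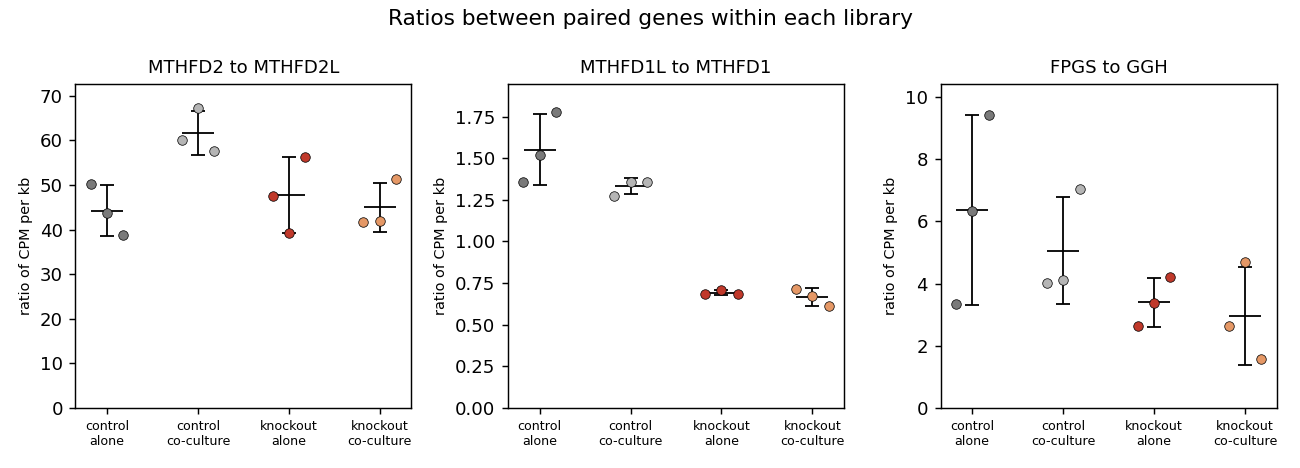
Ratio of CPM per kb between 3 pairs of genes in each of the 12 libraries, axes from 0. Points are libraries, the long bar is the mean and the whiskers are 1 SD (n = 3). The ratio of MTHFD1L to MTHFD1 lies above 1.27 in the libraries labelled control and below 0.72 in the knockout, whereas the other 2 ratios overlap between the sets. MTHFD2 to MTHFD2L lies highest in co-cultured labelled control, apart from the other groups.

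The rest of the pathway was followed in 30 other folate and one-carbon genes, of which 24 passed the filter on low counts. In lone cells 7 were higher and 9 lower in the knockout than in labelled control, 66.7% of those tested where all genes gave 56.6%. The median log2 fold change was 0.17, against 0.09 over all genes. Among genes that supply carbon units from serine and glycine, SHMT2, the mitochondrial serine hydroxymethyltransferase, was lower at -1.36 (SE 0.23, edgeR adjusted p = 0.000288), as were its cytosolic counterpart SHMT1 at -1.36 (SE 0.17) and PHGDH, the entry enzyme of serine synthesis, at -1.68 (SE 0.21). PSAT1, the next enzyme of serine synthesis, was higher at 0.83 (SE 0.17, edgeR adjusted p = 0.00134). SHMT1, SHMT2, PHGDH and PSAT1 were named after their values were seen.

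By the naming rule, the called genes of at least 1 CPM with the largest differences in lone cells were GLDC and MTR, higher, and SARDH and FOLR1, lower. FOLR3 was also called higher (edgeR adjusted p = 0.000588), with a larger log2 value than GLDC. Its mean lay under 1 CPM, and it had no count in lone labelled control. GLDC, the decarboxylase of glycine cleavage, rose from 8.99, 7.88 and 11.1 CPM in labelled control to 107.3, 100.7 and 93.9 CPM in knockout (log2 fold change 3.43 with SE 0.19, edgeR adjusted p = 1.66e-08) and stayed at 105.5 to 107.1 CPM in its co-culture. MTR, methionine synthase, was 1.18 higher on the log2 scale (SE 0.42, edgeR adjusted p = 0.0289), a call that was lost without replicate 2 or 3 of lone labelled control, without replicate 1 or 2 of lone knockout and with library sizes unscaled. SARDH, which demethylates sarcosine, was lower, at 15.5 to 20.2 CPM in labelled control and 0.212 to 0.304 CPM in knockout (edgeR adjusted p = 2.79e-08). FOLR1, the folate receptor alpha, had 29, 58 and 47 counts in lone labelled control and 0, 1 and 1 in lone knockout.

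In co-culture 5 of the 24 were higher and 8 lower in knockout than in labelled control (54.2%, where all genes gave 49.4%). GLDC, SARDH and FOLR1 were again among them. FOLR3, a secreted folate receptor, had 36, 51 and 29 counts in co-cultured knockout and 0, 1 and 0 in co-cultured labelled control. From lone to co-cultured knockout 3 of the 24 were higher (12.5%, where all genes gave 11.4%) and none lower. Among them were FOLR3 and ALDH1L1, the cytosolic relative of ALDH1L2. ALDH1L1 stood at 0.212, 0.498 and 0.487 CPM alone and at 1.38, 1.73 and 1.01 CPM in co-culture (log2 fold change 1.81 with SE 0.41, edgeR adjusted p = 0.0160). That count went from 3 to 7 with GC offsets (4 higher and 3 lower), where 4854 of all 16768 genes were called. It fell to 0 without replicate 1 of either knockout group and to 1 without replicate 2 of either, and reached 10 without replicate 3 of the co-cultured knockout. None of the 24 was called between the groups labelled control or for the difference of co-culture effects.

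**Figure D5:**
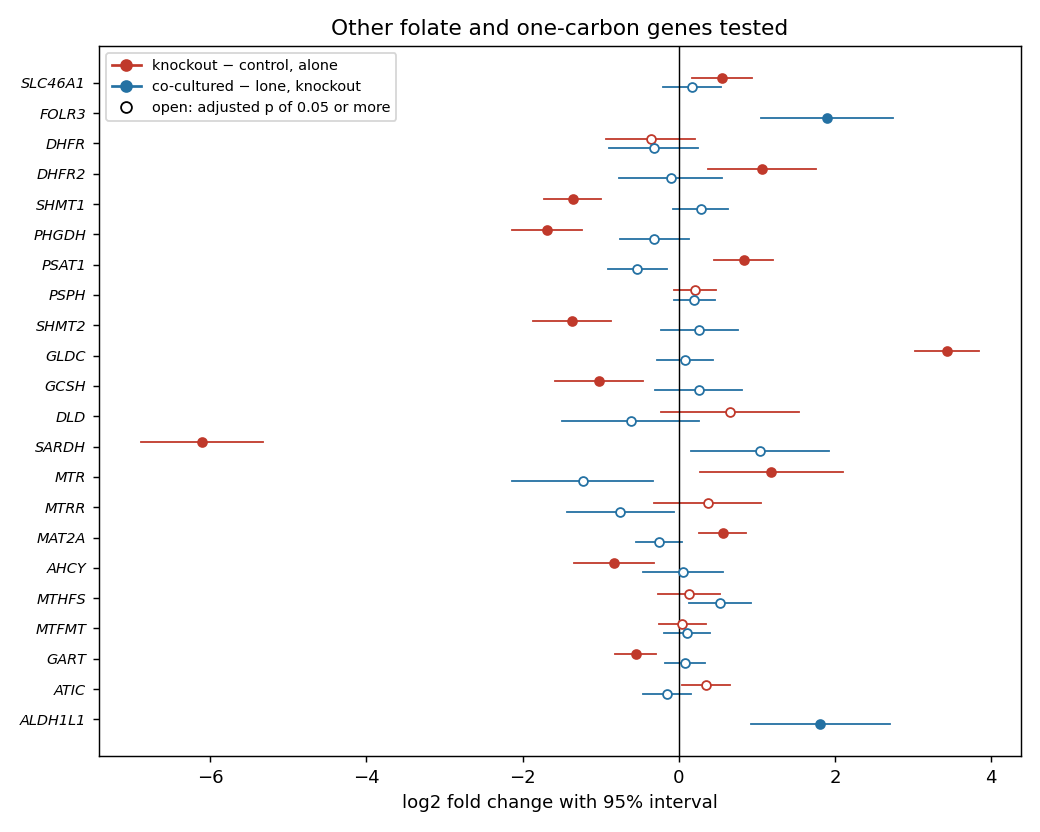
Log2 fold changes with 95% intervals of other folate and one-carbon genes that were tested, for lone knockout against lone labelled control and for co-cultured against lone knockout. Filled points have an edgeR adjusted p under 0.05, and no point is drawn where every library of a group had at most 3 counts (FOLR1 in both, FOLR3 and ALDH1L1 in the first). GLDC lies at 3.43 and SARDH at -6.11 in the first comparison, and FOLR3 and ALDH1L1 are the filled points of the second.

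MTHFD2, MTHFD1L and ALDH1L2 are known as targets of ATF4, the transcription factor of amino acid and mitochondrial stress, so 16 other ATF4 targets were counted beside them. In lone cells 5 were higher and 6 lower in knockout than in labelled control (68.8%, where all genes gave 56.6%), with a median of -0.27. SLC7A11, the cystine carrier, was higher at 2.84 (SE 0.36, edgeR adjusted p = 2.31e-05) and VLDLR, a lipoprotein receptor, at 3.09 (SE 0.26, edgeR adjusted p = 6.87e-07), while PYCR1, of proline synthesis, was lower at -1.90 (SE 0.25, edgeR adjusted p = 3.76e-05) and CTH, of cysteine synthesis, at -1.81 (SE 0.23, edgeR adjusted p = 2.47e-05). In co-cultured against lone knockout 6 were higher and 1 lower (43.8%, where all genes gave 11.4%), with a median of 0.37. DDIT3, the stress factor CHOP, went from 7.96, 7.47 and 5.35 CPM to 70.2, 60.9 and 62.7 CPM, and NUPR1, a stress-induced nuclear protein, from 0.974, 1.24 and 0.791 CPM to 7.98, 7.81 and 6.53 CPM. SLC7A11 was the member that fell, at -1.14 (SE 0.33, edgeR adjusted p = 0.0444), and that call was lost under 8 of 14 alternatives. In co-culture 10 were higher and 3 lower than in labelled control (81.2%, where all genes gave 49.4%), VLDLR and DDIT3 leading the first and PYCR1 and CTH the second. Of the 3 ATF4 targets in the folate set, MTHFD1L was lower, ALDH1L2 higher and MTHFD2 not called in both comparisons with labelled control, and none was called from lone to co-cultured knockout.

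Proliferation genes were counted because thymidylate serves DNA synthesis and the series text speaks of restored proliferation. Of 16, 1 was higher and 6 lower in lone knockout than in labelled control (43.8%, where all genes gave 56.6%), with AURKA, a mitotic kinase, at 0.67 (SE 0.18, edgeR adjusted p = 0.00660) and MCM2, a replication helicase subunit, at -1.92 (SE 0.22, edgeR adjusted p = 9.60e-06). From lone to co-cultured knockout none was higher and 8 were lower (50%, where all genes gave 11.4%), with a median of -0.71. With GC offsets 3 were higher and 13 lower, where 2612 of all 16768 genes were higher and 2242 lower. In the lone comparison with labelled control GC offsets gave 1 higher and 12 lower, where 4986 of all genes were higher and 5516 lower. The count of 8 became 5 without replicate 1 of either knockout group. TOP2A, the DNA topoisomerase of dividing cells, had 114.9, 98.0 and 83.8 CPM alone and 19.1, 11.9 and 47.8 CPM in co-culture (log2 fold change -1.91 with SE 0.43, edgeR adjusted p = 0.0165). The TOP2A call was lost without replicate 1 or 2 of lone knockout or replicate 1 of co-cultured knockout (edgeR adjusted p = 0.0513 to 0.0934), and with only the groups compared (0.0745). In co-culture 1 was higher and 11 lower than in labelled control (75%, where all genes gave 49.4%), PCNA, the replication clamp, at 0.59 (SE 0.16, edgeR adjusted p = 0.00829) and CDC20, a mitotic activator, at -2.18 (SE 0.21, edgeR adjusted p = 2.17e-06). Between the groups labelled control none of the 16 proliferation genes and none of the 16 ATF4 targets was called.

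For each of the 9 genes the gene with the most similar pattern of log2 CPM over the 12 libraries was found by Pearson's r, as a description. The libraries fall into a control-labelled and a knockout set, so r mixes differences between these sets with those inside them, and genes of like GC content also share the GC trend. SLC19A1 was most like MED16 (r = 0.998), FPGS like USF2 (0.989), GGH like PCNA (0.949), MTHFD1 like PPARG (0.970) and MTHFD1L like PLEKHG6 (0.988). MTHFD2 was most like MSANTD7 (0.917), MTHFD2L like GOT1-DT (0.824), ALDH1L2 like CAP2 (0.982) and SLC25A32 like PTP4A2 (0.905).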

How the data were processed

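The authors deposited raw counts, whole numbers of reads per Ensembl gene in 12 libraries. Per the labels' protocols, total RNA was isolated with miRNeasy and libraries were made with NEBNext Ultra RNA. The submitters' processing notes name FastQC, STAR 2.7.9a, featureCounts, R 4.2.1, DESeq2 1.36.0 and GRCh38/hg38, with no role or order. The annotation release and the strand setting are not given in the sources used here. Counts assigned without strand can mix overlapping antisense genes. Besides SLC19A1, exons on the opposite strand cover 1324 of 4870 exonic bases of MTHFD2 (SLC4A5) and 756 of 9377 of MTHFD1 (an antisense gene). They also cover 406 of 3654 of SLC25A32 (DCAF13) and at most 174 bases of MTHFD2L and of ALDH1L2.

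Here the counts were used as deposited. Genes were kept by filterByExpr, scaled by TMM and tested in R 4.3.3 with edgeR 4.0.16 (quasi-likelihood F-test, robust, 1 fit of 4 group means), with Benjamini-Hochberg adjustment over the 16768 genes tested and calls at an adjusted p under 0.05. The fit was tested on simulated data with known changes. Symbols were found for 61369 identifiers. Positions, exon length and GC content come from GENCODE 29 (GRCh38), in which 58366 identifiers were found, and promoters from RefSeq. The biological coefficient of variation was 22.1%. Replicate counts differed by a chi-square of 8.79 to 134 per gene, so no library was a repeat.

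Alternatives were other scalings, no filter, DESeq2 1.42.0, only the groups compared, a replicate block, GC offsets (loess of each library's deviation from the mean of all libraries on transcript GC, which also removes a trend shared by a group), and leaving out each library. The genes, lists and naming rule (all 9 genes, and in each other list the most changed called genes of at least 1 CPM) were chosen with earlier results of these data known. Some genes of these lists are counted but not reported by name here.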

Additional observations from a re-analysis of the deposited data

Results flagged for a closer look

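None of the 9 folate genes was picked out by the search for results to look at again, which for groups of 3 libraries covered the difference between the co-culture effects in knockout and in labelled control. Among the genes named beside them 5 were. The difference was -0.89 on the log2 scale for TYMS (SE 0.15, edgeR adjusted p = 0.0107), 2.76 for DDIT3 (SE 0.29, edgeR adjusted p = 0.000491) and 3.34 for NUPR1 (SE 0.41, edgeR adjusted p = 0.00143). It was -1.21 for CDC20 (SE 0.28, edgeR adjusted p = 0.0473) and -1.69 for BUB1, a mitotic checkpoint kinase (SE 0.39, edgeR adjusted p = 0.0460), 2 values that lie close to the threshold. Both of these calls were lost with the replicate block and when any 1 of 9 libraries (not the same 9 for both) was left out, BUB1 also with library sizes unscaled and CDC20 also with RLE size factors. The TYMS call was lost without the filter on low counts (edgeR adjusted p = 0.103), and the calls of DDIT3 and NUPR1 held under every alternative run.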

How the results depend on the processing

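With the replicate block 4, 0, 4, 0 and 0 of the 9 genes were called in lone knockout against labelled control, co-cultured against lone knockout, co-cultured knockout against labelled control, the co-culture of labelled control and the difference of co-culture effects, as without it, and no call or direction among the 45 values of these genes changed. Equal replicate numbers did not pair libraries across all 4 groups. Deviations from group means correlated at -0.603 to 0.491 over the 18 pairs with the same number, above 0.1 in 7, and 1 of 12 libraries correlated best with its own number. Outside the co-cultured knockout, replicates 1 correlated at 0.189 to 0.491, replicates 3 at 0.308 to 0.412 and replicates 2 at -0.073 to -0.024. The co-cultured knockout correlated with libraries of its own number at -0.247 to -0.170 for replicate 1, -0.215 to 0.138 for replicate 2 and -0.603 to -0.523 for replicate 3. The GC deviation also rose from replicate 1 to replicate 3 outside that group. Among the genes named beside the 9, the block ended the call of SLC7A11 from lone to co-cultured knockout (edgeR adjusted p = 0.0726), those of BUB1 (0.0852) and CDC20 (0.0734) for the difference of co-culture effects, and it left 1 of the 4 proliferation calls there.

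From lone to co-cultured knockout 0 of the 9 were called, but 1 with RLE size factors, 2 without the filter, 2 with DESeq2, 3 with GC offsets, 4 with block and GC offsets together, and 0 to 1 when a library was left out. For the difference of co-culture effects 1 (GGH) was called with GC offsets, with or without the block. The counts against labelled control ran from 4 to 6 alone and from 3 to 5 in co-culture over all alternatives. Scaling by library size only moved the median of all genes from 0.09 to 0.24 in lone knockout against labelled control and from 0.01 to -0.11 for the difference of co-culture effects, and moved 4 of 36 group means by more than their SD. Counts over all genes, the background given above, moved more. From lone to co-cultured knockout 1907 genes were called (1001 higher, 906 lower), and 664 with only those groups, 1080 with the block, 3340 without the filter, 3347 with DESeq2, 4854 with GC offsets and 4124 with both. Library size only gave 989 higher and 431 lower there. Leaving out replicate 3 of the co-cultured knockout gave 5680 genes, and leaving out any other library 536 to 1026. For the difference of co-culture effects 301 were called, 179 with the block, 1342 without the filter, 830 with DESeq2, 1399 with GC offsets and 854 with both. There, 3623 were called without replicate 3 of the co-cultured knockout, and 119 to 343 with any other library left out.

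Signs that changed were those of small values, apart from GC offsets. With GC offsets, and in nearly equal size with the block added, FPGS (0.12), GGH (-0.38), MTHFD2 (-0.45) and SLC25A32 (-0.57, -0.56 with the block) changed sign in lone knockout against labelled control. So did SLC19A1 (-0.16), MTHFD1 (0.089, 0.087) and SLC25A32 (0.44, 0.43) from lone to co-cultured knockout, and SLC19A1 (0.027) in the co-culture of labelled control. For the difference of co-culture effects the signs of SLC19A1 (-0.19), MTHFD1 (0.032, 0.029), MTHFD1L (0.15), MTHFD2 (0.25, 0.24) and SLC25A32 (0.22) changed. With library size only these were SLC19A1 (-0.017) and MTHFD2 (-0.014) from lone to co-cultured knockout, MTHFD1L (0.0087) and TYMS (0.032) in the co-culture of labelled control, and MTHFD2L (0.13) in lone knockout. With RLE and with DESeq2 they were MTHFD2 in lone knockout (-0.022 in both) and MTHFD1L for the difference (0.0069 and 0.0067), and without the filter MTHFD1 from lone to co-cultured knockout (0.024) and MTHFD1L for the difference (0.020). The cause was not tested for the changes with scaling, filter or tool.

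Leaving out a library gave both signs for SLC19A1 (-0.10 to 0.22), MTHFD2 (-0.16 to 0.16), MTHFD2L (-0.11 to 0.18) and SLC25A32 (-0.39 to 0.015) from lone to co-cultured knockout. The same held for MTHFD2 (-0.068 to 0.10), MTHFD2L (-0.16 to 0.10) and SLC25A32 (-0.15 to 0.18) in lone knockout against labelled control, and for FPGS (-0.17 to 0.24) in co-culture. In the co-culture of labelled control it held for ALDH1L2 (-0.20 to 1.26), GGH (-0.26 to 0.17), MTHFD1L (-0.16 to 0.013) and TYMS (-0.069 to 0.011), and for the difference of co-culture effects for MTHFD1L (-0.18 to 0.012). The lower calls of SLC19A1 and MTHFD1L and the higher call of ALDH1L2 in lone knockout, and in co-culture the calls of SLC19A1, MTHFD1L and GGH, kept their side of the threshold under every alternative run. Where 1 library was left out, its group kept 2, and the spread was pooled over all groups. Depth limits ALDH1L2, MTHFD2L and SLC25A32 most, with 3 to 159 counts per library.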
